A study of Schmidtea mediterranea with 12 samples.

Results

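NPC2 and GM2A are small lipid-binding proteins that share a fold known as the ML (MD-2-related lipid-recognition) domain. In the planarian Schmidtea mediterranea, 3 transcripts matched to them were examined: npc2 (dd_Smed_v6_73_0_1, here dd_73, 540 bases), a further NPC2 match (dd_Smed_v6_4411_0_1, dd_4411, 552 bases) and gm2a (dd_Smed_v6_214_1_1, dd_214_1, 640 bases). They are 3 of 28069 transcripts in the count table, and all 3 were among the 13136 that had at least 1 CPM (count per 1000000 reads of the library) in at least 4 of 12 libraries. They were chosen by their measured levels in these same libraries, as transcripts abundant in intestine and higher in its medial part, so their levels and fold changes are given as a description with no test.

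In mammals, NPC2 is a soluble lysosomal protein that binds cholesterol and hands it to the membrane protein NPC1 for export from the lysosome. GM2A, the GM2 activator, lifts the ganglioside GM2 out of membranes and presents it to a lysosomal enzyme for breakdown. The planarian intestine is a blind, branched gut built of phagocytes, which take up and digest food, goblet cells, which are secretory, and basal cells along its outer edge, and the study used npc2 (dd_73) as a goblet cell marker for in situ hybridization.

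The libraries came from uninjured adults of the asexual clonal line CIW4, 6 to 9 mm long and starved for 7 days. The animals were fixed in methacarn and cut at 20 µm, and tissue was laser-captured from the anterior, rostral to the pharynx, as medial intestine, lateral intestine and non-intestine. There were 4 libraries of each tissue, and each library pooled sections of a single animal. Reads were generated from the 3′ ends of mRNAs with 5 ng total RNA per library. No treatment or mutant was involved, all libraries came from 1 clonal line, and the captured intestine was not sorted by cell type.

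Library totals were between 20227187 and 33296270 counts. The scaling factors (TMM, trimmed mean of M-values) differed by tissue, at 0.765 to 0.923 in medial intestine, 0.794 to 0.985 in lateral intestine and 1.21 to 1.5 in non-intestine. With library totals alone, the median log2 fold change of all transcripts moved by -0.7 for medial against non-intestine and by -0.65 for lateral against non-intestine, but only by -0.06 for medial against lateral. All 5 phagocyte markers tested were called higher in medial and lateral intestine than in non-intestine, where 12.8% and 11.7% of all transcripts were, but the study lists these markers as higher in intestine in the same libraries, so they are no independent check of the labels. They had summed levels of 7448 to 10310 CPM in medial intestine, 6842 to 8399 CPM in lateral intestine and 168.5 to 222.2 CPM in non-intestine. Of 6 tested markers from outside the intestine, 3 were called lower in medial intestine and 2 in lateral intestine than in non-intestine, where 11.5% and 8.75% of all transcripts were, among them PCSK2, a prohormone convertase of neurons (log2 fold change -3.84 and -4.03), and TEKT2, a protein of cilia (-3.75 and -4.56). Over the 6, log2 fold changes ran from -3.84 to -0.44 in medial and from -4.56 to 0.09 in lateral intestine, so not every outside marker was clearly lower. The summed level of the 6 was 232.3 to 380.6 CPM in medial intestine, 301.2 to 550.7 CPM in lateral intestine and 549.8 to 750.7 CPM in non-intestine, and none of the 6 was at 0 in every library of a tissue.

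npc2 (dd_73) had the highest mean level of the 3 transcripts in each tissue. It reached 2141, 1588, 3087 and 2381 CPM in the medial libraries of animals 1 to 4, 1269, 945.7, 972.5 and 1219 CPM in their lateral libraries, and 38.94, 22.45, 14.66 and 31.75 CPM in their non-intestine libraries. The lowest medial library stood above the highest lateral library, and the lowest lateral library far above every non-intestine library. The fitted level was 85.3-fold higher in medial intestine than in non-intestine (log2 fold change 6.41, SE 0.35), 40.9-fold higher in lateral intestine than in non-intestine (5.35, SE 0.33) and 2.09-fold higher in medial than in lateral intestine (1.06, SE 0.28). Within animals, the medial level was 1.69, 1.68, 3.17 and 1.95 times the lateral one, so that animal 3, with the highest medial library, also had the widest difference.

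The second NPC2 match, dd_4411, was much less abundant but more uniform between animals. Its levels were 172.5, 175.8, 205.1 and 217.3 CPM in medial intestine, 52.58, 43.27, 43.51 and 42.06 CPM in lateral intestine, and 1.029, 0.9888, 0.9449 and 1.348 CPM in non-intestine. The coefficient of variation between animals was 11.4% in medial intestine, 10.7% in lateral intestine, against 17% in non-intestine, where npc2 (dd_73) had 27%, 15.1% and 39.4%. The values rested on 3242 to 4900 reads per medial library, against 29 to 41 reads per non-intestine library, so the non-intestine values, near 1 CPM, rested on few reads. The fitted level was 178-fold higher in medial intestine than in non-intestine (log2 7.48, SE 0.21), 42-fold higher in lateral intestine than in non-intestine (5.39, SE 0.19) and 4.25-fold higher in medial than in lateral intestine (2.09, SE 0.16). The medial level was 3.28, 4.06, 4.71 and 5.17 times the lateral one in animals 1 to 4.

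gm2a had nearly the level of npc2 (dd_73) in medial intestine but not in lateral intestine. It was measured at 2088, 1666, 1899 and 1764 CPM in the medial libraries, 326, 446.1, 530.8 and 341 CPM in the lateral libraries, and 12.52, 13, 7.755 and 5.19 CPM in the non-intestine libraries. Medial values were close together (coefficient of variation 9.87%), lateral values less so (23.4%), and non-intestine values spread the most (39.3%). The fitted level was 193-fold higher in medial intestine than in non-intestine (log2 7.59, SE 0.35), 42.7-fold higher in lateral intestine than in non-intestine (5.42, SE 0.31) and 4.51-fold higher in medial than in lateral intestine (2.17, SE 0.27). The medial level was 6.41, 3.73, 3.58 and 5.17 times the lateral one in the 4 animals, the widest difference being in animal 1, where the lateral level was lowest.

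**Figure D1:**
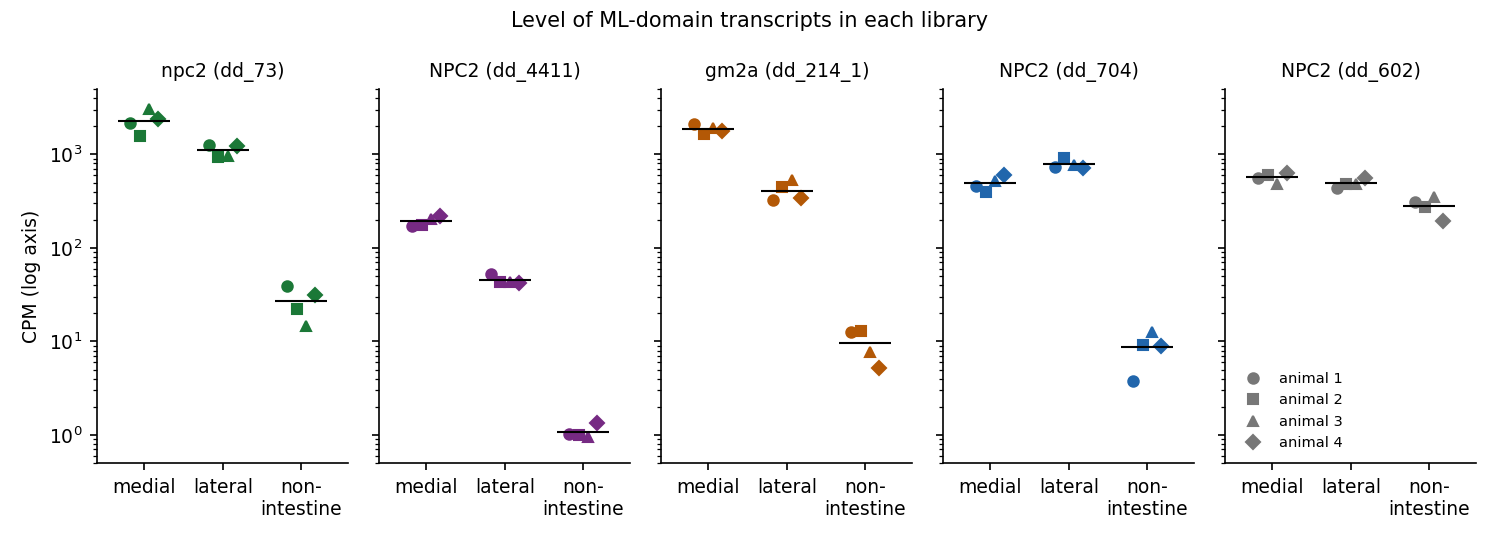
CPM of each library (points, shaped by animal) on a log axis in medial intestine, lateral intestine and non-intestine, for the 3 transcripts and for the 2 other NPC2 matches, with the mean as a bar. The 3 transcripts descend from medial to lateral to non-intestine with no overlap, dd_704 is highest in lateral intestine, and dd_602 stays between 192.3 and 633 CPM in all 12 libraries.

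For each of the 3 transcripts the order of the tissues was therefore medial, lateral, non-intestine, in each of 4 animals, and no neighbours in that order overlapped. Among all 13136 transcripts, 18.4% had every medial library above every non-intestine library, 18.7% had every lateral library above every non-intestine library, and 1.36% had every medial library above every lateral library. Under the call rule applied to all transcripts (an edgeR quasi-likelihood FDR under 0.01 and a fold above 2, or above 1.5 between the intestinal tissues), all 3 were past the rule against non-intestine in medial intestine, where 12.8% of transcripts were, and in lateral intestine, where 11.7% were. Between medial and lateral intestine, dd_4411 and gm2a were past it and npc2 (dd_73) was not, against 0.129% of all transcripts. Since those differences chose the transcripts, nothing is read from these counts. The gm2a call ended without animal 1, 2 or 3 and without the lateral library of animal 1, with a log2 fold change of 2.01 to 2.32 over all libraries or animals left out, and npc2 (dd_73) was past the rule with DESeq2, at 1.05. In captured tissue, fewer cells of a type and less RNA per cell cannot be told apart.

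**Figure D2:**
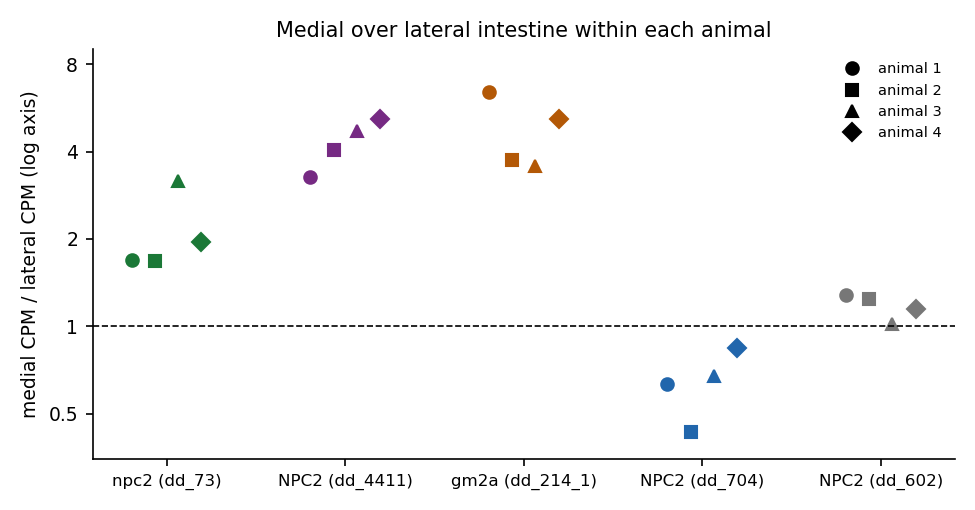
CPM in medial intestine divided by CPM in lateral intestine of the same animal (log axis, points shaped by animal), for the 5 ML-domain transcripts. Every point of npc2 (dd_73), dd_4411 and gm2a lies above 1, between 1.68 and 6.41, every point of dd_704 lies below 1, and those of dd_602 lie between 1.02 and 1.28.

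Levels of different transcripts were compared per length, as the deposited TPM values, which are scaled by length and library, with the reserve that counts from 3′ ends do not grow with transcript length. On that scale npc2 (dd_73) averaged 3051 ± 649 TPM in medial intestine, 1564 ± 217 TPM in lateral intestine, against 78.29 ± 34.2 TPM in non-intestine (SD, n = 4 each). gm2a averaged 2099 ± 239, 493.6 ± 117 and 23.72 ± 10.2 TPM in the same tissues, and dd_4411 averaged 252 ± 20.1, 63.18 ± 7.75 and 3.025 ± 0.391 TPM. The 3 transcripts are of similar length, so the order by TPM was also the order by CPM.

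Ranked by TPM among the 13136 transcripts, npc2 (dd_73) stood between places 25 and 48 in the medial libraries, 55 and 72 in the lateral libraries and 964 and 2182 in the non-intestine libraries. gm2a stood between places 50 and 56, 152 and 225, and 2678 and 4960. dd_4411 stood between places 307 and 360, 845 and 1061, and 8718 and 10036. Because counts from 3′ ends do not grow with length, dividing by length raises the places of short transcripts such as these. In medial intestine the longer rpz4 (dd_279, 1463 bases) averaged 5642 CPM and 2759 TPM, beside 2299 CPM and 3051 TPM for npc2 (dd_73). The median transcript had 3.22 TPM in medial intestine, 3.53 TPM in lateral intestine, against 7.9 TPM in non-intestine. On this scale dd_4411 was below the median transcript outside the gut, while npc2 (dd_73) and gm2a were above it.

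The proportions of the 3 transcripts also differed between tissues. gm2a was 0.615 to 1.05 times the CPM of npc2 (dd_73) in medial libraries, 0.257 to 0.546 times in lateral libraries and 0.163 to 0.579 times in non-intestine libraries. npc2 (dd_73) was 9.03 to 15.1 times dd_4411 in medial libraries, 21.9 to 29 times in lateral libraries and 15.5 to 37.8 times in non-intestine libraries. By contrast, gm2a and dd_4411 kept similar proportions, with gm2a at 9.74 ± 1.68 times dd_4411 in medial intestine, 9.2 ± 2.61 times in lateral intestine and 9.34 ± 4.23 times in non-intestine (SD, n = 4 each). These ratios follow from the values that chose the transcripts and were not tested.

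2 further transcripts were matched to NPC2, and they had other profiles. dd_704 (dd_Smed_v6_704_0_1, 666 bases) was measured at 463.4, 394.6, 525.1 and 607.3 CPM in medial intestine, 730, 909, 777 and 721.8 CPM in lateral intestine, and 3.784, 9.141, 12.77 and 8.999 CPM in non-intestine. It was 57.3-fold higher in medial intestine than in non-intestine (log2 5.84, SE 0.34, edgeR FDR 2.03e-08) and 90.4-fold higher in lateral intestine than in non-intestine (6.5, SE 0.35, FDR 1.09e-08). Its medial level was below its lateral level in 4 of 4 animals and the 8 libraries did not overlap, as for 2.36% of all transcripts, but the difference did not pass the test (log2 -0.66, SE 0.28, edgeR FDR 0.509). Its opposite direction to the members, which were chosen as higher in medial intestine, was not tested as a difference between transcripts.

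dd_602 (dd_Smed_v6_602_0_1, 685 bases) was the NPC2 match found at a high level outside the gut. It had 559.8, 603.8, 488.2 and 633 CPM in medial intestine, 436.9, 485.8, 480 and 552.5 CPM in lateral intestine, and 307, 271.1, 346.6 and 192.3 CPM in non-intestine. It was 2.05-fold higher in medial intestine than in non-intestine (log2 1.03, SE 0.18, edgeR FDR 0.000452), 1.75-fold higher in lateral intestine than in non-intestine (0.81, SE 0.18, FDR 0.00306, below the fold required) and did not pass between medial and lateral intestine (0.22, SE 0.18, FDR 0.898). The medial call ended under 12 of 22 alternatives, with a value of 0.86 with DESeq2's size factors, 0.32 with library totals alone and 0.81 to 1.2 with an animal or library left out. In deposited TPM dd_602 averaged 606.2 ± 89.7 in medial intestine, 548 ± 53.9 in lateral intestine, against 641.1 ± 181 in non-intestine (SD, n = 4 each), where medial intestine was the lower of the first and last. Under these scalings the 3 members and dd_704 kept their direction and call against non-intestine. With library totals alone, npc2 (dd_73) was at 5.7, dd_4411 at 6.79 and gm2a at 6.87 for medial against non-intestine. The members were chosen by these differences, so their calls are a description only.

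**Figure D3:**
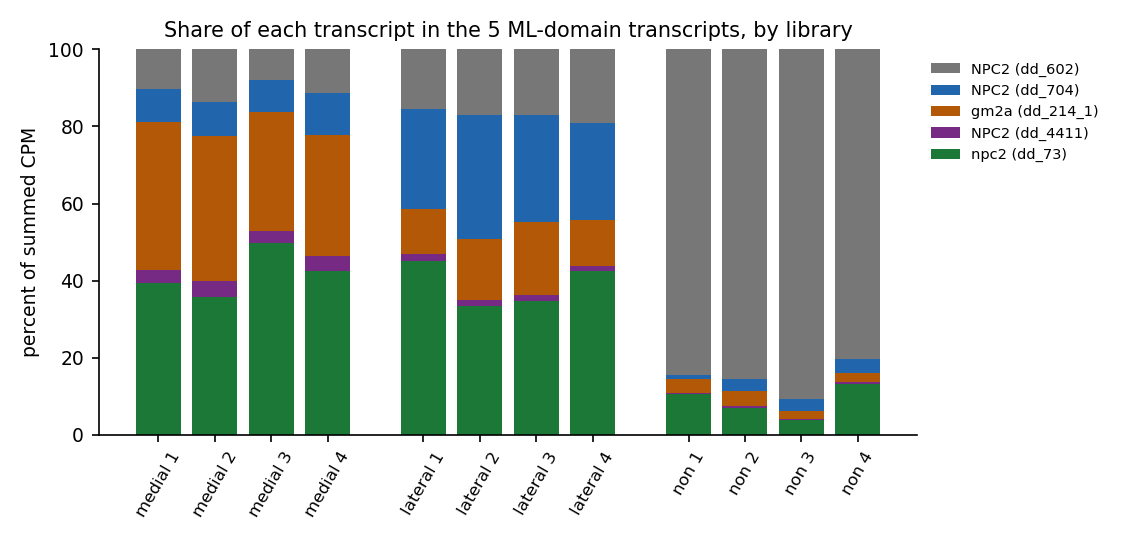
Percent of the summed CPM of the 5 ML-domain transcripts taken by each, 1 bar per library, for medial intestine, lateral intestine and non-intestine (animals 1 to 4). gm2a takes 30.6 to 38.5% in medial bars and 11.6 to 18.9% in lateral bars, dd_704 takes 8.46 to 10.8% and 25.1 to 32.1%, and dd_602 takes 80.3 to 90.6% in non-intestine bars.

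Added over the 5 ML-domain transcripts, the level was 5415 ± 738 CPM in medial intestine, 2831 ± 32.3 CPM in lateral intestine, against 325.6 ± 63.7 CPM in non-intestine (SD, n = 4 each). npc2 (dd_73) made up 41.9 ± 5.86% of this sum in medial intestine and 38.9 ± 5.73% in lateral intestine, against 8.73 ± 4.14% in non-intestine. gm2a made up 34.5 ± 4.07% in medial intestine, 14.5 ± 3.47% in lateral intestine, against 2.94 ± 1.01% in non-intestine. dd_704 made up 9.18 ± 1.1% in medial intestine and 27.7 ± 3.13% in lateral intestine, and dd_602 made up 85.2 ± 4.24% in non-intestine.

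gm2a shares its assembly number with dd_Smed_v6_214_0_1, which was matched to RPS29, a protein of the small ribosomal subunit. That transcript had 535.8, 353.3, 178 and 330 CPM in medial intestine, 184.7, 514.7, 675.5 and 210.3 CPM in lateral intestine, and 117.8, 203.1, 212.2 and 55.07 CPM in non-intestine, with overlap between medial and lateral libraries and no call in any contrast (edgeR FDR 0.0615, 0.0399 and 1). Reads were counted on a single transcript each, so stretches that both transcripts might share could divide their reads. In lateral intestine both transcripts were higher in animals 2 and 3 than in animals 1 and 4, and whether shared reads had a part in the spread of lateral gm2a was not tested. No other transcript in the count table shares a number with an ML-domain match.

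The transcripts with the profiles most like those of the 3 members were found by the root mean square difference of log2 CPM, each centred on its own mean over the 12 libraries, with names as the study matched them. Closest to npc2 (dd_73) were dd_1488 (0.288), dd_185 (0.347), dd_1062 (0.379), dd_500 (0.459) and dd_12262 (0.493), of which dd_1062 was matched to GAA, the lysosomal alpha-glucosidase, and dd_12262 to Noggin, a secreted BMP antagonist. Closest to dd_4411 were dd_634 (0.476, matched to rpz4), gm2a (0.479), dd_975 (0.496, matched to the serine protease KLK13), dd_72 (0.522) and dd_4693 (0.557, matched to gastric lipase, lipf). Closest to gm2a were dd_975 (0.32), dd_72 (0.381), dd_4411 (0.479), dd_634 (0.481) and dd_131 (0.527), so that 3 neighbours other than the members themselves were common to gm2a and dd_4411. npc2 (dd_73) was in place 18 for gm2a and in place 7 for dd_4411, dd_704 in place 209 and 191, and dd_602 in place 1943 and 1968.

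Goblet cell markers, taken from the in situ patterns of the study, differed between medial and lateral intestine in both directions. Of 15 tested, 6 were called higher in medial intestine, among them the metalloendopeptidase cg7631 (dd_254, log2 3.7), rpz4 (dd_279, 3.5), klk13 (dd_3728, 3.46), lipf (dd_257, 1.68) and the peptidoglycan recognition protein pgrp-lb (dd_1523, 1.22). Another 4 were called lower, namely the basement membrane protein nid2 (dd_25, -3.01), an unnamed transcript (dd_1401, -2.36) and the protease inhibitors spint3 (dd_300, -2.35) and eppin (dd_101, -2.14), where 0.129% of all transcripts were called higher and 0.16% lower. With the animal as a block, klk13 and pgrp-lb no longer passed (edgeR FDR 0.0107 and 0.0115), leaving 4 higher and 4 lower, and with an animal or a library left out 3 to 6 were higher and 1 to 4 lower. The median log2 fold change of the list was 1.02, beside -0.03 over all transcripts. Among the 15, pi16 (dd_2021) is named outside the rule, because the study describes it, like npc2, in all goblet cells. Its levels were 106.2 to 133.3 CPM in medial libraries and 38.84 to 63.52 CPM in lateral libraries. The log2 fold change of pi16 was 1.31 (SE 0.29), not called (edgeR FDR 0.088), beside 1.06 for npc2 (dd_73). By double in situ hybridization, the study found cg7631 mainly in medial goblet cells and spint3 mainly in lateral ones. The list used here was not split by such subtypes, and a shared cause for pi16 and npc2 was not tested.

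Summed over the 15 goblet markers, the level was 20670 to 30930 CPM in medial intestine, 36600 to 41060 CPM in lateral intestine and 463.6 to 757.8 CPM in non-intestine, and no marker was at 0 in every library of a tissue. The direction of this sum rested on nid2 and eppin, which averaged 1928 and 3158 CPM in medial intestine, against 15510 and 13920 CPM in lateral intestine. Without these 2, left out after seeing the data, the other 13 markers had the opposite order. They summed to 17070 to 24440 CPM in medial intestine and 8016 to 11580 CPM in lateral intestine. As nid2 and eppin had the highest lateral means of the 15, nothing is read from this reversal. The summed level of the 3 ML-domain members was 3429 to 5191 CPM in medial libraries and 1435 to 1647 CPM in lateral libraries. The part of goblet cell number or subtype in the medial difference of the members was not tested. Of 5 phagocyte markers, none was called between medial and lateral intestine by edgeR or DESeq2 (2 with an unadjusted edgeR p under 0.05, log2 0.07 to 0.4, with hnf-4, a transcription factor, the highest). Of 6 basal cell markers none was called by edgeR or DESeq2 either, and 0 had an unadjusted p under 0.05 (-0.41 for the bile acid transporter slc10a2 to 0.14 for uroc1). The summed basal markers were 15510 to 22930 CPM in medial intestine, 17160 to 29240 CPM in lateral intestine and 639.7 to 976.5 CPM in non-intestine.

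**Figure D4:**
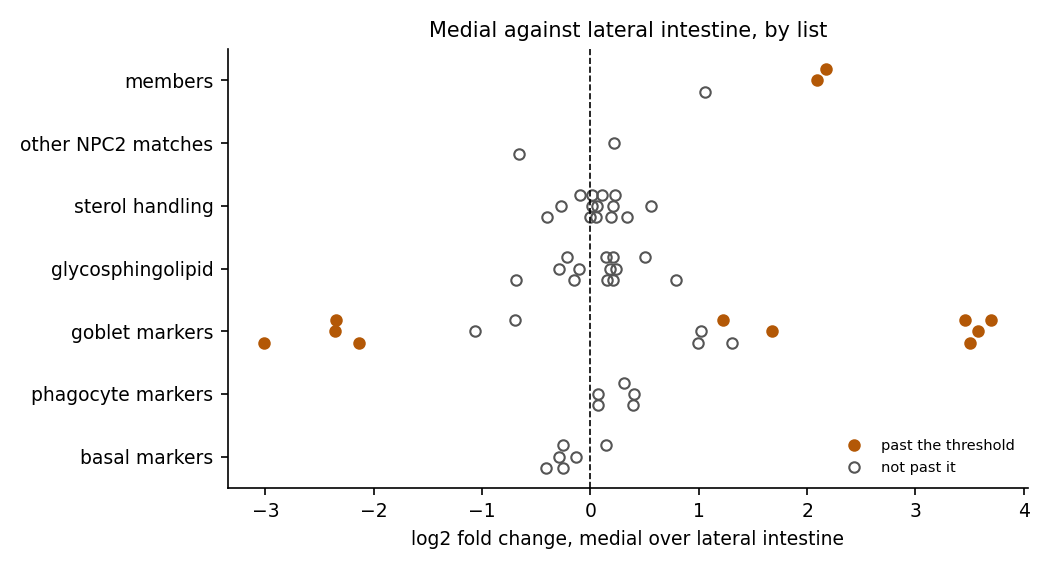
Log2 fold change of medial over lateral intestine for each transcript (1 point) of the members, the other NPC2 matches and 5 lists. Filled points are past the call rule. The members lie at 1.06, 2.09 and 2.17, the goblet markers run from -3.01 to 3.7, and every sterol and glycosphingolipid transcript lies between -0.69 and 0.79.

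Other genes of sterol handling were mostly higher in both intestinal tissues, and none was called between them. Most names in this list come from tables of transcripts that the study chose as higher in intestine in these libraries, so the first direction is not independent evidence. Of 14 tested, 13 were called higher in medial intestine and 13 in lateral intestine than in non-intestine, as were 12.8% and 11.7% of all transcripts, with medians of 2.14 and 2.25 on the log2 scale beside -0.17 and -0.12 for all transcripts. With library totals alone, 8 and 9 were called. The highest in lateral intestine was lysosomal acid lipase, lipa (dd_122_1), at 5.5.

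Between medial and lateral intestine none of the 14 was called by edgeR or DESeq2, 1 had an unadjusted p under 0.05, and their median was 0.06, beside -0.03 over all transcripts. They ran from -0.4 for the sterol carrier SCP2 (dd_2892) to 0.56 for SOAT1 (dd_2567), which esterifies cholesterol. NPC1 (dd_5175), named outside the rule because NPC2 passes cholesterol to it in mammals, averaged 37.13 ± 10.9 CPM in medial intestine, 36.76 ± 3.76 CPM in lateral intestine, against 3.988 ± 1.21 CPM in non-intestine (SD, n = 4 each), with a medial over lateral log2 fold change of 0.01 (SE 0.25, edgeR FDR 1). The medial difference of dd_4411 and npc2 (dd_73), by which they were chosen, stood beside a value near 0 for NPC1. Nothing is read from that comparison, and the difference between transcripts was not tested.

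The glycosphingolipid list, again mostly of transcripts that the study chose in these libraries, gave a similar picture beside gm2a. Of 15 listed, 13 were tested, 12 of them called higher in medial intestine and 11 in lateral intestine than in non-intestine (medians 2.64 and 2.43 on the log2 scale), or 7 and 8 with library totals alone. Of all transcripts, 12.8% and 11.7% were called higher, and the medians were -0.17 and -0.12. A prosaposin match (PSAP, dd_215), precursor of the saposins that present sphingolipids to lysosomal enzymes, was the highest at 6.51 and 6.61, and matches of the protective protein CTSA were the lowest, at 1.4 for dd_785 in medial intestine and 0.99 for dd_4773 in lateral intestine.

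Between medial and lateral intestine none of the 13 was called by edgeR and 1 by DESeq2 (median 0.15, 2 with an unadjusted edgeR p under 0.05), and they ran from -0.69 for another PSAP match (dd_390) to 0.79 for the neutral ceramidase ASAH2 (dd_1726, SE 0.15, FDR 0.0381). gm2a stood at 2.17 in the same contrast, outside the range of the list. It was chosen as higher in medial intestine and the list was not. Nothing is read from its place outside that range, and the difference was not tested.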

How the data were processed

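Per the labels and the study's methods, tissue of 4 animals was laser-captured as medial intestine, lateral intestine and non-intestine, giving 12 libraries (QuantSeq 3′). The authors mapped trimmed reads with Bowtie2 2.3.1 to 28069 transcripts of the de novo dd_Smed_v6 assembly, so no genome coordinates apply, and deposited the read counts per transcript from SAMtools 1.3, which are not normalized. The deposited TPM columns divide counts by transcript length and bring each library to 1 total over the 13136 transcripts kept. A further 24 deposited columns of CPM and RPKM, and the authors' own comparisons (log2 fold changes, likelihood ratios, p-values, FDR), were not used.

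Counts were fitted with edgeR 4.0.16 (on limma 3.58.1 and R 4.3.3, TMM, quasi-likelihood test, a term per tissue, all 12 libraries, at least 1 CPM in at least 4 libraries). Calls needed a Benjamini-Hochberg FDR under 0.01 and a fold above 2, or above 1.5 for medial against lateral. SEs are the log2 fold change over the square root of F and are approximate. CPM are per TMM-scaled library. The fit was tested on simulated data. DESeq2 1.42.0, a likelihood ratio test, other scalings, no filter, an animal block and leaving out animals or libraries were alternatives. Summaries used Python 3.11.15, numpy 2.4.6, pandas 2.3.3 and matplotlib 3.10.9.

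Same-numbered libraries were taken as the same animal, as the methods describe 3 tissues captured from each section. Deviations from tissue means correlated between same-numbered libraries at -0.0096 to 0.159 (12 pairs).

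The members and lists were chosen with earlier results of these data known. Named were the members, other NPC2 or GM2A matches and transcripts of the same number, from each list those past the medial against lateral threshold and the highest and lowest in each contrast, and the 5 nearest profiles per member (prior count 2). Names are the study's best matches. A few list transcripts that this rule names are not reported here. No molecular identifiers are mentioned, so reads are not independent molecules.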

Additional observations from a re-analysis of the deposited data

Results flagged for a closer look

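In lateral intestine, the library of animal 1 stood apart for dd_4411, at 52.58 CPM beside 42.06 to 43.51 CPM in the other 3. It was the 1 such library in 15 groups of 4 examined, and chance gives about 1 in 20.

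Of 15 goblet markers, 6 were called higher and 4 lower in medial than in lateral intestine by edgeR's quasi-likelihood test. Of all transcripts, 0.129% were called higher and 0.16% lower. With the animal as a block, klk13 and pgrp-lb no longer passed, leaving 4 higher and 4 lower. Values are given here for 9 of the markers called without the block. Log2 fold changes of medial over lateral were 3.7 for cg7631, 3.5 for rpz4, 3.46 for klk13, 1.68 for lipf (dd_257), 1.22 for pgrp-lb, -2.14 for eppin, -2.35 for spint3, -2.36 for dd_1401 and -3.01 for nid2.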

How the results depend on the processing

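Over 22 alternatives, no fold change of a named transcript in any contrast turned direction with a call. The 3 members stayed past the rule against non-intestine under all of them. They were chosen by their differences between the tissues, so their calls here are a description and no support. The animal as a block (a replicate block) moved the transcripts lower in medial than in lateral intestine to 13 (main 21) and left each member on its side of the threshold. For the same contrast, higher and lower calls were 47 and 128 with the likelihood ratio test and 51 and 118 with DESeq2, beside 17 and 21. With library totals alone, chosen after seeing the data, 954 transcripts were higher and 2854 lower in medial intestine than in non-intestine (main 1676 and 1511), and 930 and 2207 in lateral intestine (main 1543 and 1149), so that 25.1% and 29.6% of calls were higher, beside 52.6% and 57.3%. DESeq2 gave 41.7% and 46.4%. Leaving out an animal or a library gave 664 to 1721 lower in medial intestine and 407 to 1368 in lateral intestine than in non-intestine, and 6 to 17 higher and 5 to 20 lower in medial than in lateral intestine. The causes of these shifts were not tested. A prior count of 0.5 kept all 5 nearest profiles of each member. Between medial and lateral intestine the call was lost under 17 alternatives for pgrp-lb, 13 for dd_1401, 12 for klk13, 5 for eppin and 2 for spint3. For dd_4411, each non-intestine value rests on 29 to 41 reads.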
